A study of Bos taurus with 20 samples.

Results

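The 5 genes described here encode enzymes that make, interconvert or use ketone bodies and a carrier that moves them across membranes: ACAT1, BDH1, BDH2, OXCT1 and SLC16A1. They were chosen by gene symbol from the probe set table of a bovine liver array study, with the brightest probe set kept where a symbol had several. Each of the 5 symbols had 1 probe set, and they are 5 of the 20011 genes measured. Liver RNA of 10 multiparous Holstein-Friesian cows was hybridised to Affymetrix bovine arrays, 1 array before and 1 after calving for each cow, which gives 20 arrays in 4 groups of 5. The groups were LP postpartum, LP antepartum, AP postpartum and AP antepartum. LP cows received a dry-period ration with 0.16% phosphorus of dry matter over its last 4 weeks, and AP cows one with 0.35%. Feed in the dry period was limited to 11.5 kg of dry matter in LP and AP alike, the LP concentrate held added urea so that nitrogen matched, and every cow had the same lactation ration from calving on. Both the AP cows and the LP cows were therefore feed-restricted before calving, and the postpartum groups no longer differed in ration. The sources used here do not give the day of sampling relative to calving. The LP cows are called A, B, C, D and E and the AP cows F, G, H, I and J.

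Ketone bodies are small acids that the liver makes from fatty acids when glucose is scarce. In liver mitochondria, fatty acid oxidation yields acetyl-CoA, a thiolase joins pairs of it to acetoacetyl-CoA, further enzymes release acetoacetate, and hydroxybutyrate dehydrogenase reduces that to 3-hydroxybutyrate. Other tissues reverse these steps through a CoA transferase that the hepatocyte is known to lack, so that the liver exports ketone bodies rather than burning them. In dairy cows around calving, when milk production outruns feed intake, blood ketone bodies commonly rise and ketosis is a frequent disorder. In ruminants the rumen wall also makes 3-hydroxybutyrate from butyrate.

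Values are log2 signals as the authors deposited them, so that a difference of 1 doubles the signal, and no value of one gene is set against that of another because probe sets differ in how brightly they respond. All 8 hepatocyte markers were bright in every array, with 9.37 as the lowest value of any of them. One array, that of LP cow C after calving, stood apart. Its adipocyte marker score, the mean deviation of 6 markers from their mean over all arrays, was 4.46 against -0.56 to 0.06 in the other 19 arrays, and its score for 6 fibroblast and stellate cell markers was 4.60 against -0.67 to 0.87. Each of these 12 markers was highest there: ADIPOQ, the adipocyte hormone adiponectin, was at 11.26 against 4.27 to 4.95, FABP4 at 11.04 against 2.14 to 4.16 and COL1A1 at 13.25 against 6.65 to 8.77. Of the skeletal muscle markers, 6 of 9 were highest in that array (score 1.5 against -0.44 to 1.42), while the hepatocyte score was -0.45 against -0.20 to 0.13 and albumin (ALB) stayed within the range of the others at 13.70. The endothelial score was also highest there (0.67 against -0.30 to 0.21), and those of macrophages (0.42), T and NK cells (-0.36), cholangiocytes (0.18) and erythroid cells (-0.19) lay within the range of the other arrays. Results that rest on this array are given with and without it.

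**Figure D1:**
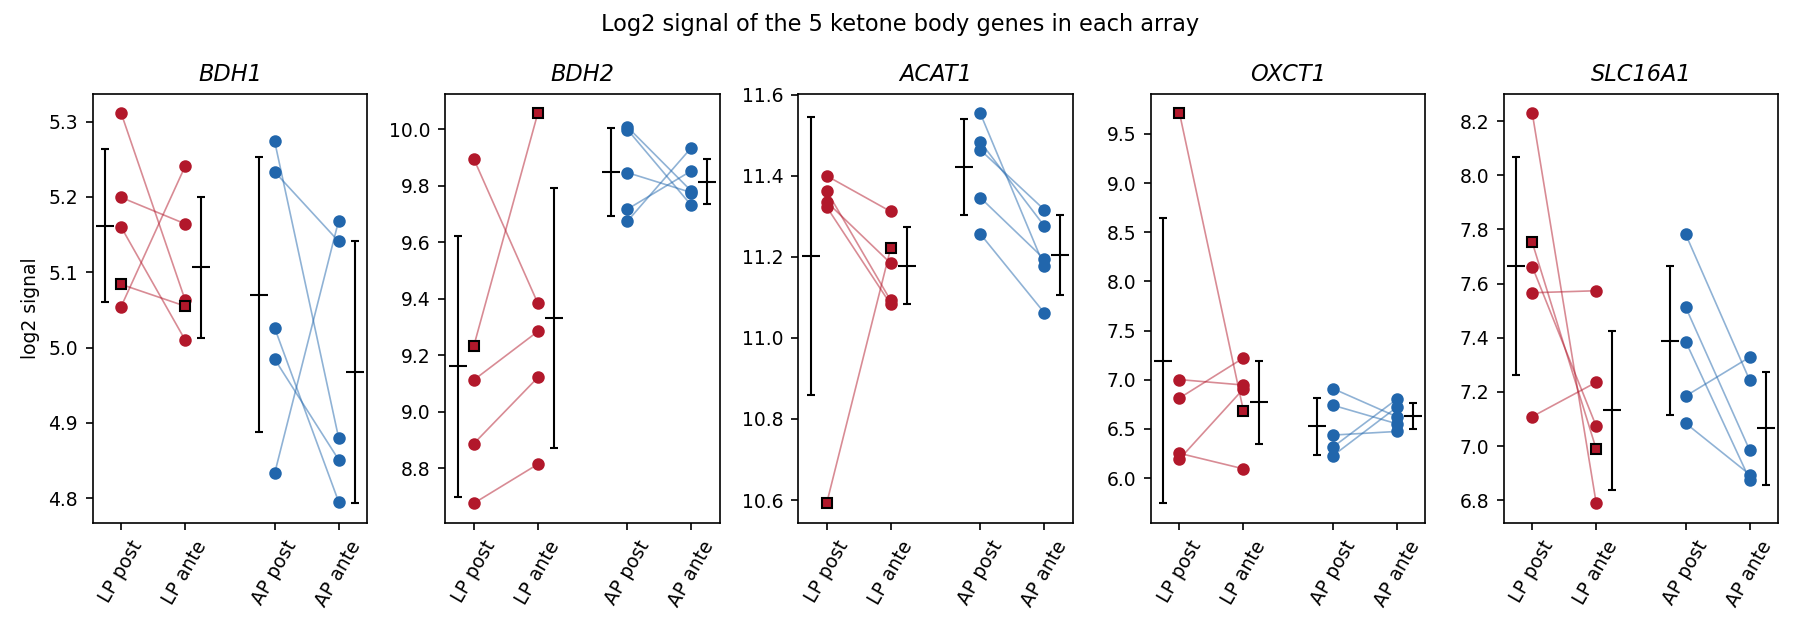
Log2 signal (vertical axes, each panel with its own scale) of the 5 genes in the 20 arrays, by group from left to right LP postpartum, LP antepartum, AP postpartum and AP antepartum. Points are arrays, lines join the 2 arrays of a cow, squares are cow C, and black bars are the group mean ± SD (n = 5): BDH2 is spread widely in LP and narrowly in AP, and cow C postpartum lies far above the other arrays for OXCT1, at 9.71, and below them for ACAT1, at 10.59.

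ACAT1 encodes the mitochondrial acetoacetyl-CoA thiolase, which acts at the entry of ketone body synthesis and, running the other way, at the end of their use. The workbook places its probe set (12727508, 22 probes) on chromosome 15 from 17999932 to 18028987, plus strand. The sources used here name no build for these and the following coordinates. Postpartum signals were 11.32, 11.36, 10.59, 11.40 and 11.34 in LP cows A to E, against 11.08, 11.09, 11.22, 11.31 and 11.18 antepartum. In AP cows F to J they were 11.35, 11.26, 11.46, 11.55 and 11.48 postpartum, against 11.19, 11.06, 11.32, 11.18 and 11.28 antepartum. ACAT1 was thus higher after calving in 9 of 10 cows, all except C. Postpartum and antepartum values overlapped in AP, and in LP they overlapped through cow C alone. The fitted difference over both diets was 0.12 (SE 0.0889, 95% confidence interval -0.06 to 0.31, limma adjusted p = 0.697) and did not pass the threshold of an adjusted p under 0.05. Without the postpartum array of cow C it was 0.20 (SE 0.0608, 0.07 to 0.32, limma adjusted p = 0.0962), again not past the threshold. A two-sided exact permutation test that flips the sign of each cow's change gave p = 0.205 over the 10 cows and 0.00391 over the 9 cows without C. The second value is the smallest that 9 cows can give and is not adjusted over genes. Cow C was the only cow with a fall, so leaving it out fixed that value in advance. The test without C was chosen after seeing the data. Of all genes 1.99% were higher postpartum in each of those 9 cows, 3.26% moved the same way in all 9 of them, and 15% had an exact p under 0.05 there. The value of cow C was the lowest of 20 arrays, as was that of 18.8% of all genes.

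With cow C set aside, the calving change of ACAT1 was 0.09 to 0.27 in the other LP cows (mean 0.19 ± 0.08, SD, n = 4), and in the AP cows 0.15 to 0.38 (mean 0.22 ± 0.09, SD, n = 5). The fitted difference between the diets in the calving change, LP minus AP, was -0.19 over all arrays (95% confidence interval -0.56 to 0.18, limma adjusted p = 1.00). With the postpartum array of cow C left out and its antepartum array kept, it was -0.04 (-0.29 to 0.21).

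BDH1 encodes the mitochondrial 3-hydroxybutyrate dehydrogenase, the enzyme that interconverts 3-hydroxybutyrate and acetoacetate. Its probe set (12685704, 25 probes) is placed on chromosome 1 from 72572938 to 72608810, minus strand. It was dim, at 4.80 to 5.31 over the 20 arrays, where the lower quartile of all probe sets lay between 4.67 and 4.98 per array, and no detection call was used. Group means were 5.16 ± 0.10 in LP postpartum, 5.11 ± 0.09 in LP antepartum, 5.07 ± 0.18 in AP postpartum and 4.97 ± 0.17 in AP antepartum (SD, n = 5 each). BDH1 was higher after calving in 8 of 10 cows, by 0.08 on average (95% confidence interval -0.07 to 0.23, limma adjusted p = 0.790), and by 0.04 without cow G and 0.13 without cow I. Its spread within groups, an SD of 0.144, was small: 9.18% of genes had a smaller one, and the median over all genes was 0.223. Each step between neighbours in the order of the 4 groups was smaller than the SD of those groups.

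BDH2 encodes a cytosolic dehydrogenase of the short-chain family that was named 3-hydroxybutyrate dehydrogenase type 2. In mice it has also been studied for a part in making an iron-binding siderophore. Its probe set (12871075, 30 probes) is placed on chromosome 6 from 23047057 to 23077435, plus strand. Of the 5 genes it differed most between the diets in relation to its error. Postpartum, LP cows A to E had 8.68, 9.90, 9.23, 9.11 and 8.89, and AP cows F to J 10.00, 9.85, 9.68, 10.01 and 9.72. Antepartum, LP cows A to E had 8.82, 9.38, 10.06, 9.29 and 9.12, and AP cows F to J 9.73, 9.78, 9.94, 9.78 and 9.85. At each time 4 of the 5 LP cows lay below every AP cow, and a different LP cow was the exception: B postpartum and C antepartum.

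Averaged over its 2 arrays, each LP cow was below each AP cow. The cow means were 8.75 to 9.65 in LP (mean 9.25 ± 0.40, SD, n = 5) and 9.79 to 9.90 in AP (mean 9.83 ± 0.05, SD, n = 5). Such a complete separation with LP below AP was found for 0.175% of all genes, and a separation in either direction for 0.45%. The fitted LP minus AP difference over both times was -0.59 (SE 0.155, 95% confidence interval -0.92 to -0.25), a signal 1.5-fold lower in LP. Its unadjusted limma p was 0.00239, under the 0.05 that 3.64% of genes passed, and its adjusted p over all genes was 1.00, so that BDH2 did not pass the threshold. The difference was -0.69 postpartum (SE 0.198, -1.10 to -0.28, limma adjusted p = 0.812) and -0.48 antepartum (SE 0.198, -0.89 to -0.07, limma adjusted p = 1.00). A two-sided exact permutation of the diet labels gave p = 0.00794 over the cow means, the smallest that 5 against 5 can give, 0.0317 postpartum and 0.0476 antepartum, none of them adjusted over genes. An exact p under 0.05 was reached by 3.45% of all genes over the cow means, by 4.24% postpartum and by 3.35% antepartum. Without cow C the fitted difference was -0.69. The exact p over cow means was then 0.00794, the smallest that 4 against 5 can give, where 3.3% of genes were under 0.05. Leaving a cow out of fully separated means fixes that p in advance, so it adds no support. With cow C entered by its antepartum array alone the separation did not hold, since its 10.06 lay above every AP cow. The fitted difference over both times was then -0.50 (SE 0.193, unadjusted limma p = 0.0214) and the exact p 0.103, where 3.68% of genes were under 0.05. The change of BDH2 across calving was -0.07 over both diets (95% confidence interval -0.36 to 0.22), lower in 6 of 10 cows.

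**Figure D2:**
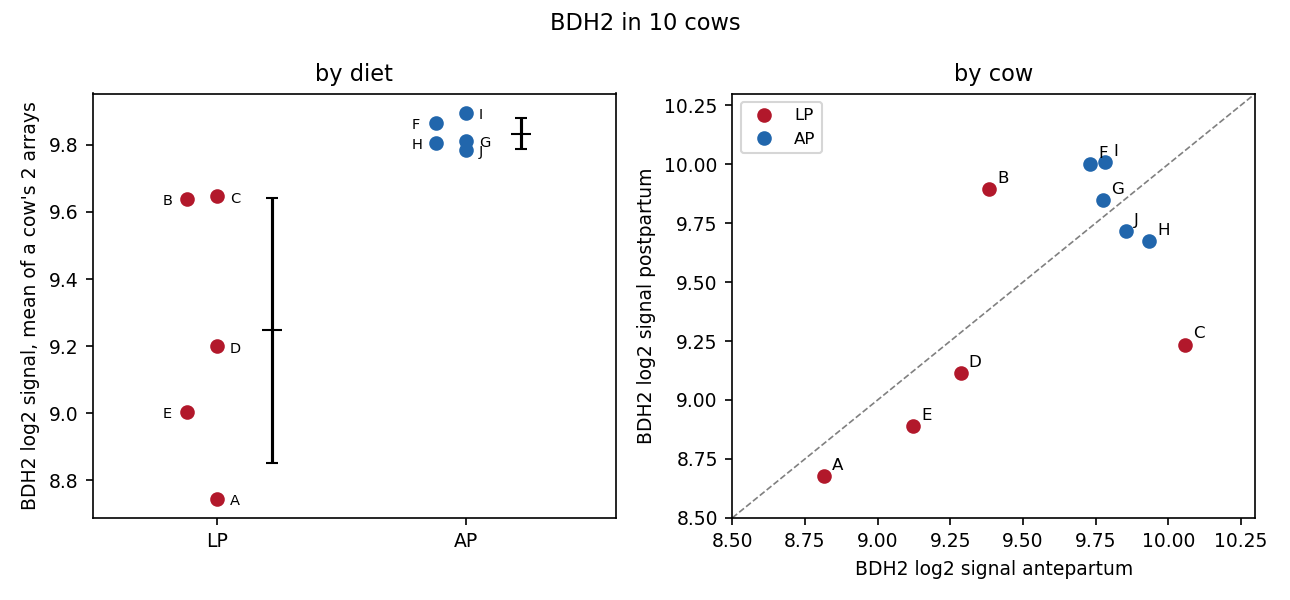
BDH2 in the 10 cows. Left, the mean log2 signal of a cow's 2 arrays (points) by diet, LP left and AP right, with the group mean ± SD (bars, n = 5): LP cows lie between 8.75 and 9.65 and AP cows between 9.79 and 9.90. Right, the postpartum log2 signal of each cow against its antepartum signal, with the dashed line marking equality: cows A, D and E are low at both times, and B and C at 1 time each.

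Some cell type markers also differed in mean between the diets, as values without a test. All 7 macrophage markers and all 5 T and NK cell markers were higher in LP over both times. Their median differences were 0.37 and 0.25, with the postpartum array of cow C included. Cow means of the macrophage score ran from -0.46 to 0.52 in LP and from -0.44 to -0.03 in AP. The 0.52 was that of cow C, at 0.42 postpartum and 0.63 antepartum. Antepartum, without that postpartum array, the mean macrophage score was 0.40 in LP and -0.11 in AP. The mean T and NK score there was 0.23 and -0.09. With the postpartum array of cow C included, all 6 fibroblast and stellate cell markers, all 6 adipocyte markers and all 5 endothelial markers measured were also higher in LP, with median differences of 0.60, 0.28 and 0.15. Antepartum, without that array, the mean adipocyte score was -0.29 in LP and -0.15 in AP, and the mean fibroblast and stellate score -0.28 and -0.06. The mean endothelial score there was 0.06 in LP and -0.05 in AP. Postpartum, LP cows A, B, D and E had adipocyte scores of -0.36, -0.25, -0.08 and -0.56, against -0.32 to -0.08 in AP. Their fibroblast and stellate scores were -0.41, 0.81, -0.24 and -0.56, against -0.67 to -0.26. The hepatocyte score ran from -0.16 to 0.08 in LP cow means and from -0.0021 to 0.04 in AP. The -0.16 was that of cow C, at -0.45 postpartum and 0.13 antepartum. Postpartum, LP cows A, B, D and E had hepatocyte scores of 0.08, -0.02, -0.05 and -0.20, against -0.06 to 0.02 in AP. Whether these markers have a part in the BDH2 difference was not tested, and in whole liver fewer cells of a type and less RNA per cell cannot be told apart.

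OXCT1 encodes succinyl-CoA:3-oxoacid CoA transferase, the mitochondrial enzyme by which tissues outside the liver activate acetoacetate for use. Its probe set (12786160, 24 probes) is placed on chromosome 20 from 32683996 to 32848726, plus strand. Postpartum signals were 6.19, 6.25, 9.71, 6.81 and 7.00 in LP cows A to E, against 6.91, 6.09, 6.68, 7.22 and 6.95 antepartum. In AP cows F to J they were 6.32, 6.91, 6.44, 6.74 and 6.23 postpartum, against 6.80, 6.62, 6.47, 6.55 and 6.72 antepartum. The value of cow C postpartum was 2.49 above the highest of the other 19 arrays, which ran from 6.09 to 7.22. A lead of at least 2 in that array was found for 165 genes, 0.825% of those measured. That array had the highest adipocyte, fibroblast, endothelial and skeletal muscle scores. The skeletal muscle score of cow F antepartum was nearly as high, at 1.42 against 1.5, and the OXCT1 signal there was 6.80. The part of such cells in the OXCT1 signal of cow C was not tested.

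That single array set the sign of the mean change. The difference over both diets was 0.16 with it (SE 0.306, 95% confidence interval -0.48 to 0.79, limma adjusted p = 0.918) and -0.16 without it (SE 0.137, -0.44 to 0.13, limma adjusted p = 0.718), and OXCT1 was higher postpartum in 5 cows and lower in 5. Within LP the change was 0.42 with the array and -0.21 without it, and the postpartum LP minus AP difference was 0.67 with it and 0.04 without it. In AP the change was -0.11, with a 95% confidence interval of -1.01 to 0.79 that takes its spread from all groups, and of -0.50 to 0.28 without the array. With an SD within groups of 0.772, OXCT1 varied more than 99.1% of genes; over the 4 groups without cow C postpartum, group SDs ran from 0.13 in AP antepartum to 0.42 in LP antepartum.

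**Figure D3:**
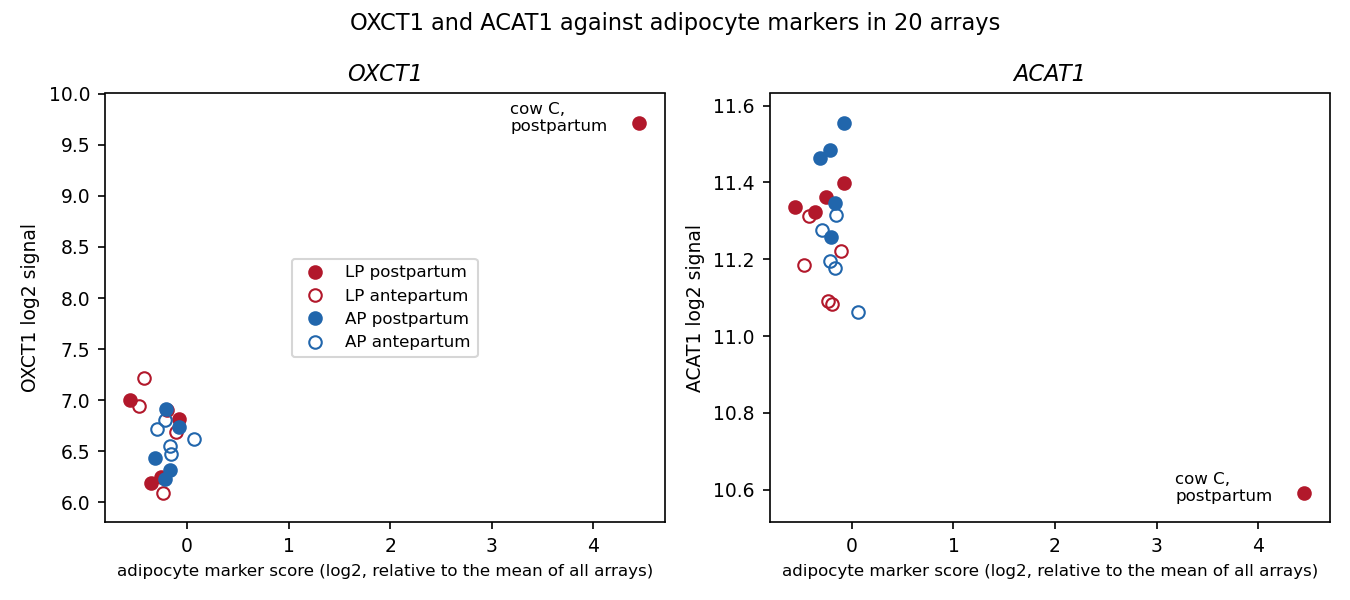
Log2 signal of OXCT1 (left) and ACAT1 (right) in the 20 arrays against the adipocyte marker score, the mean deviation in log2 of 6 markers from their mean over all arrays. Filled points are postpartum and open points antepartum, red LP and blue AP: the postpartum array of cow C lies alone at a score of 4.46, with the highest OXCT1 (9.71) and the lowest ACAT1 (10.59) signal.

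SLC16A1 encodes monocarboxylate transporter 1, a proton-coupled carrier of lactate, pyruvate and ketone bodies across the cell membrane. Its probe set (12836738, 18 probes) is placed on chromosome 3 from 30533845 to 30563304, plus strand. Of the 5 genes it had the largest difference across calving in relation to its error. Postpartum signals were 7.11, 8.23, 7.75, 7.57 and 7.66 in LP cows A to E, against 7.24, 6.79, 6.99, 7.57 and 7.07 antepartum. In AP cows F to J they were 7.08, 7.78, 7.39, 7.51 and 7.18 postpartum, against 6.89, 7.24, 6.88, 6.98 and 7.33 antepartum. It was higher postpartum in 7 of 10 cows and lower in A, D and J, in D by less than 0.01, and cow B had the largest change at 1.44. Postpartum and antepartum values overlapped in both diets.

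The fitted difference of SLC16A1 over both diets was 0.43 (SE 0.127, 95% confidence interval 0.16 to 0.69), or 1.35-fold. Its limma p was 0.00298 unadjusted, where 11.9% of all genes were under 0.05, and 0.108 adjusted over all genes, which did not pass. The exact permutation test of the 10 cows' changes gave a two-sided unadjusted p of 0.0195, and 13.3% of genes had one under 0.05. Without cow C that p was 0.0391 over 9 cows. With the animal as a block the limma adjusted p was 0.141, and without cow A, whose SLC16A1 was lower postpartum, the difference was 0.51 and its adjusted p 0.0429. Within each diet the differences were 0.53 in LP (95% confidence interval 0.16 to 0.91, limma adjusted p = 0.614) and 0.32 in AP (-0.05 to 0.70, limma adjusted p = 0.643), and they differed by 0.21, LP minus AP, with an interval of -0.32 to 0.74. Without cow B the LP difference was 0.30 and its unadjusted limma p 0.0956. The authors' deposited table gave SLC16A1 a log2 ratio of 0.43 and a paired p of 0.0201, the lowest among the 5 genes. Adjusted here by Benjamini-Hochberg over all 24333 probe sets of that table, the paired p was 0.283. Beside these changes, 1 of 7 macrophage markers and 0 of 5 T and NK cell markers were higher postpartum over both diets (median differences -0.38 and -0.15). So were 3 of 8 hepatocyte markers (-0.08), 6 of 6 adipocyte markers (0.44) and 5 of 6 fibroblast and stellate cell markers (0.37). All these values include the postpartum array of cow C. In AP alone, the mean macrophage score was -0.28 postpartum and -0.11 antepartum, and the mean hepatocyte score -0.03 and 0.08. The mean T and NK score there was -0.16 and -0.09. In AP, which does not hold the array of cow C, the mean adipocyte score was -0.20 postpartum and -0.15 antepartum. The mean fibroblast and stellate score in AP was -0.50 postpartum and -0.06 antepartum. Of the other LP cows, D had a higher adipocyte score postpartum (-0.08 against -0.42) and B a higher fibroblast and stellate score (0.81 against -0.48). The part of these markers in the changes of SLC16A1 and ACAT1 was not tested.

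None of the 5 genes passed the adjusted threshold in any of the 7 comparisons by limma. For postpartum against antepartum the background was 1.5% of genes over both diets, 0.015% in LP and 0.415% in AP. For LP against AP it was 0.005% postpartum, 0.005% antepartum and 0.005% over both times, and no gene passed for the difference between the diets in the calving change. At an unadjusted limma p under 0.05, SLC16A1 was the 1 member for time over both diets and for time in LP, BDH2 the 1 member in each LP against AP comparison, and none of the 5 was under it for time in AP or for the interaction. The shares of all genes under it were 11.9% for time, 5.96% in LP, 9.2% in AP, 5.66% for the diet postpartum, 2.45% antepartum, 3.64% over both times and 2.79% for the interaction. In each case 1 gene alone makes up the members' share, and these comparisons share their cows. Without the postpartum array of cow C, 0.045% of genes passed the adjusted threshold for time in LP, 1.43% in AP and 2.73% over both diets, and again none of the 5 did. In the order of the 4 group means, 2 of the 15 steps between neighbours were larger than the SD of those groups: LP antepartum below AP antepartum for BDH2, by 0.48, and AP postpartum above AP antepartum for ACAT1, by 0.22.

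**Figure D4:**
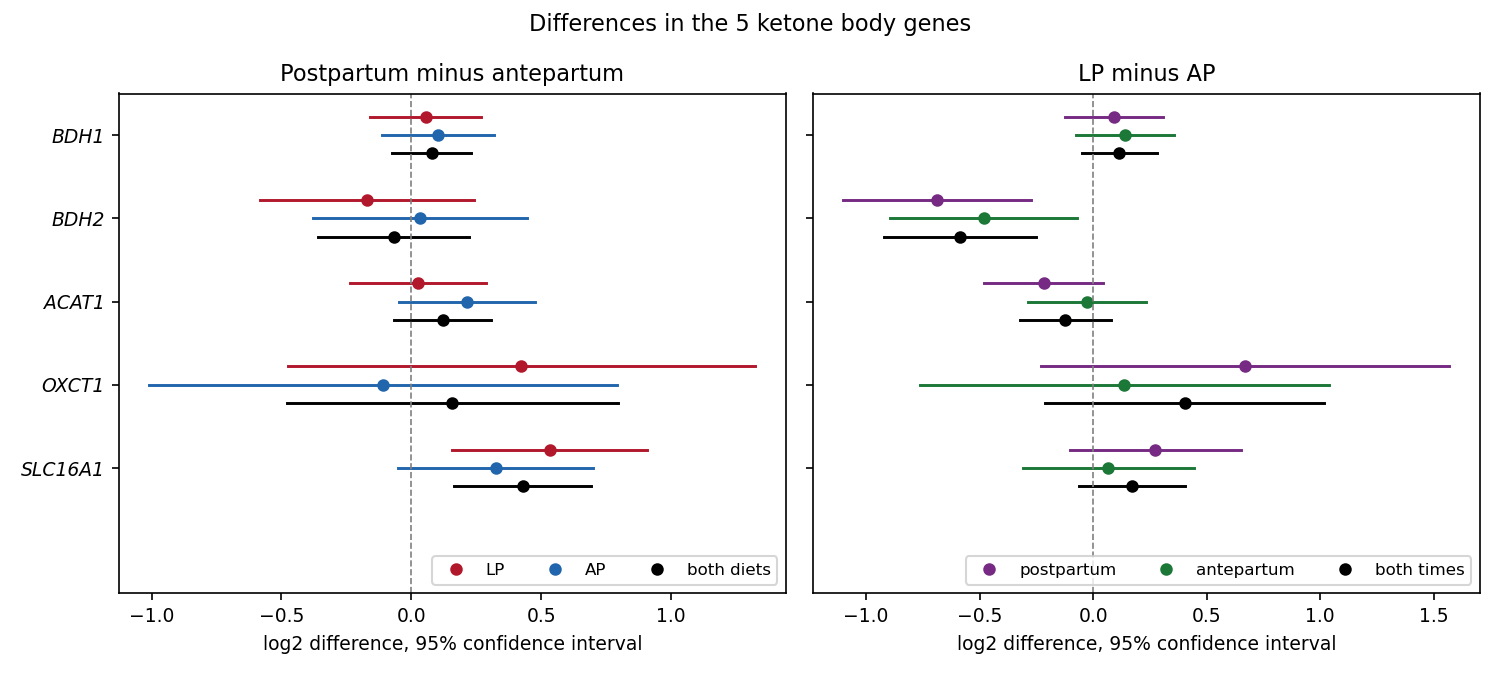
Fitted log2 differences of the 5 genes (points) with 95% confidence intervals (lines) from the limma model. Left, postpartum minus antepartum in LP, AP and both diets. Right, LP minus AP postpartum, antepartum and over both times: the intervals of SLC16A1 for time in LP and over both diets, and those of BDH2 in the 3 diet comparisons, do not include 0 before adjustment over genes.

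Among cows, the changes of OXCT1 and SLC16A1 across calving went together in rank. Over 10 cows Spearman's rho was 0.84 (permutation p = 0.00368, 0.0368 after Benjamini-Hochberg adjustment over the 10 pairs of members), and Pearson's r was 0.48 (permutation p = 0.152, adjusted 0.380). The low Pearson value came with cow C, which had an OXCT1 change of 3.03 and an SLC16A1 change of 0.76. Without C, r was 0.79 and rho 0.83 over 9 cows, and without A and C, the 2 farthest from the median OXCT1 change, r was 0.74 over 8. Cows A, D and J had lower SLC16A1 postpartum and also lower OXCT1. In F and H the directions differed, with OXCT1 changes of -0.49 and -0.04 and SLC16A1 changes of 0.19 and 0.51. A rho at least this far from 0 was found with the OXCT1 change for 2.60% of all genes and with the SLC16A1 change for 1.61%, and the changes of 2 genes come from the same arrays.

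The changes of BDH2 and ACAT1 correlated at r = 0.80 (permutation p = 0.00784, 0.0784 adjusted over the 10 pairs) and rho = 0.70 (permutation p = 0.0290, adjusted 0.145), which did not pass, and r was 0.50 over 8 cows without B and C. ACAT1 and OXCT1 had r = -0.87 (permutation p = 0.0799) over all cows and 0.34 without C, so that their opposite course rested on that cow. None of the other 7 pairs passed by either coefficient.

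**Figure D5:**
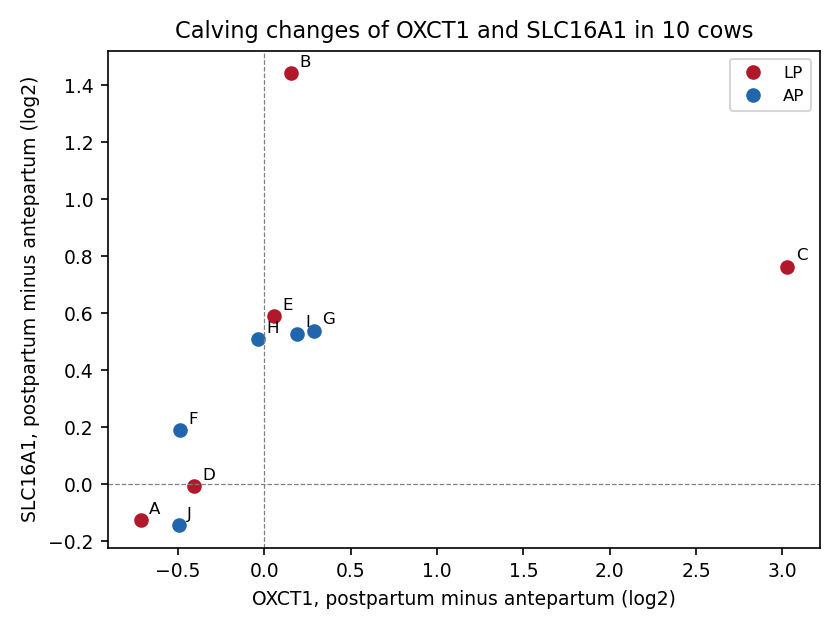
Change of SLC16A1 against change of OXCT1 across calving (postpartum minus antepartum, log2) in the 10 cows, lettered, with LP in red and AP in blue. Cow C lies far to the right at 3.03, and among the other 9 cows the SLC16A1 change is larger where the OXCT1 change is larger (rho 0.83).

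The genes whose calving changes were most like those of each member, by Pearson's r over the 10 cows, differed from member to member. They are given as a description, since the 3 closest of 20011 genes are close by selection. For BDH2 they were CXADR, a cell adhesion receptor (0.98), SLC35D1, a nucleotide sugar carrier (0.97), and PON3, a paraoxonase (0.96), with 0.97, 0.93 and 0.95 without cow C. For ACAT1 they included FMO1, a flavin monooxygenase (0.97), and HSD17B6 (0.96). Without cow C the value of FMO1 was 0.91, but that of HSD17B6 was 0.51. For OXCT1 they were ESYT1, APPL1 and GNB4 (0.99, 0.99 and 0.99), with 0.90, 0.98 and 0.85 without cow C. For SLC16A1 they were COMMD10 (0.97), GABPA, a transcription factor subunit (0.96), and LMBR1 (0.95), and for BDH1 OR2AE1 (0.88), TOE1 (0.84) and MIR2322 (0.84), all nearly the same without cow C.

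Among the genes around this pathway, those for the supply of acyl groups had members that rose. Of 17 genes for fatty acid entry into mitochondria and beta-oxidation, 2 passed over both diets, where 1.5% of all genes passed, and both rose postpartum. A difference above 0 was found for 14, and the median was 0.11 against -0.01 over all genes. CPT1B, the muscle-type isoform of the carnitine palmitoyltransferase that commits fatty acids to mitochondrial entry, averaged 6.67 ± 0.38 in LP postpartum, 6.09 ± 0.32 in LP antepartum, 7.25 ± 0.71 in AP postpartum and 6.08 ± 0.22 in AP antepartum (SD, n = 5 each). It rose by 0.87 (limma adjusted p = 0.0150, SE 0.181) and was higher in 9 of 10 cows. In AP alone it rose by 1.17 (limma adjusted p = 0.0449). Left-out cows ended these calls: over both diets without D, E, F or I (highest adjusted p 0.0676), and in AP without A, B, D, F, H, I or J (highest 0.227). ACADVL, the very long chain acyl-CoA dehydrogenase, rose by 0.50 (limma adjusted p = 0.0466, SE 0.124), higher in 9 of 10 cows. It passed in 13 of 22 settings and missed without B, D, E, F, H, I or J (highest adjusted p 0.172). Without the postpartum array of cow C, 6 of the 17 passed: CPT1B, ACADVL, ETFDH, CPT2, SLC25A20 and HADHA all rose, by 0.41 to 0.94, where 2.73% of all genes passed.

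Of the 18 carriers of monocarboxylates beyond SLC16A1 and their partner proteins, 1 rose and 1 fell past the threshold, where 1.5% of all genes passed. MPC1, a subunit of the mitochondrial pyruvate carrier, rose by 0.53 (limma adjusted p = 0.0168, SE 0.112), higher in 9 of 10 cows. SLC16A9, a carrier of the same family as SLC16A1, fell by 0.50 (limma adjusted p = 0.0150, SE 0.104), lower in 10 of 10 cows. MPC1 missed without D, E, H or I (highest adjusted p 0.0751) and SLC16A9 without I or J (0.0611), and both passed in the other settings run. The median of the list was -0.09.

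In the list of other enzymes of ketone body synthesis and use and of short and medium chain acyl activation, none of the 13 measured passed by limma over both diets. An unadjusted limma p under 0.05 was reached by 1 of them, and by 11.9% of all genes. All 13 differences lay below 0, with a median of -0.15, and 3 lay above 0 without the postpartum array of cow C (median -0.07). The lowest p were those of ACSM2B, a medium chain acyl-CoA synthetase (-0.35, limma adjusted p = 0.147), and ACSM3 (-0.38, limma adjusted p = 0.472). Of 13 regulators and signals, none passed by limma and 4 were under an unadjusted p of 0.05, where 11.9% of all genes were. The median of these 13 was 0.11. PDK4, a kinase that inhibits pyruvate dehydrogenase, had a difference of 0.47 (limma adjusted p = 0.0759), and PPARGC1A, a coactivator of fasting programmes in liver, one of 0.52 (limma adjusted p = 0.0810). Without the postpartum array of cow C, PPARGC1A, GCGR and CREB3L3 passed, higher postpartum by 0.63, 0.40 and 0.64, where 2.73% of all genes passed. No gene of the 4 lists passed for time in LP, in any LP against AP comparison or for the interaction.

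Between the diets the acyl supply genes also depended on that array. Postpartum, none of the 17 had an LP minus AP difference above 0, with a median of -0.24. Of them 3 were under an unadjusted limma p of 0.05, where 5.66% of all genes were. Without it 6 were above 0, the median was -0.04 and none was under that p. Antepartum, 12 of the 17 were above 0, with a median of 0.02.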

How the data were processed

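The deposited workbook holds log2 signals of 24333 probe sets on 20 arrays, made by SST-RMA per the file headers. The submitters' processing notes list RMA and, as software, Affymetrix Expression Console 1.4. Array medians lay between 5.97 and 6.14, since RMA equalises the arrays, which hides any shift common to all genes. For postpartum against antepartum the authors gave a log2 ratio, a score that is a signed fold change, and a paired p-value without adjustment. A rounded copy of the deposited log2 table differed by at most 0.005. No 2 arrays were duplicates: the smallest root mean square difference was 0.274.

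A gene was a symbol held alone by a probe set (20421 probe sets, 20011 genes), and the brightest probe set was used for the 386 symbols with several. By accession the 5 members had the same symbols in a RefSeq table (assembly ARS-UCD2.0), which served for names alone. The model, limma 3.58.1 under R 4.3.3, had 4 group means over the 20 arrays and no term for the cow. For time and the interaction it thus treated the 2 arrays of a cow as independent. Its two-sided p were adjusted by Benjamini-Hochberg over every gene at a threshold of 0.05, and the code was tested on simulated data. For LP against AP over both times a cow gave 1 value, its mean over both arrays, or its antepartum array where the postpartum array of cow C was left out. Exact permutations and correlations (100000 permutations) used Python 3.11.15, numpy 2.4.6 and scipy 1.17.1. Precision is limited by the number of arrays, 5 in a group.

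Groups came from the diet and time labels. Titles carry a number taken here for the animal, because each number has 1 antepartum and 1 postpartum sample. Same-numbered arrays are paired in the cows' changes and means, the exact tests of time and the animal block, but not in the main fits of time. Residuals of a cow's 2 arrays correlated with a median r of 0.167 (0.0719 to 0.312, over 0.1 in 8 cows), against -0.0412 between cows.

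The members, the 4 pathway lists and the 9 marker lists were chosen with earlier results of these data known. All members are named. From the lists, genes that passed are named, and otherwise the 2 of lowest unadjusted p for time. For likeness, the 3 genes of highest r were named, leaving out symbols that start with LOC. A gene that this rule selects is not reported here. GCGR, CREB3L3 and the other genes that passed without cow C were named after their values were seen. Alternatives were the animal block, quantile normalization, median centring, a filter on the dimmest genes, other treatments of several probe sets, a trended robust variance, array weights, the rounded table, the array number as a covariate, another threshold, and leaving out each cow. Some of the tests without cow C, and the exact tests of diet, were chosen after seeing the data.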

Additional observations from a re-analysis of the deposited data

Results flagged for a closer look

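In groups of 5 samples, a value was singled out where its gap to the nearest other sample, over the range of the group, was above Dixon's 95% critical value of 0.71. Of 40 groups of values of the 5 genes, 5 had such a sample, where chance gives about 1 in 20. For OXCT1, cow C was the highest LP postpartum array at 9.71, with the others at 6.19 to 7.00, and its calving change of 3.03 was the highest in LP, with the others at -0.71 to 0.16. For ACAT1, cow C was the lowest LP postpartum array at 10.59, with the others at 11.32 to 11.40, and its calving change of -0.63 was the lowest in LP, with the others at 0.09 to 0.27. These 4 values come from the same array, which held the highest adipocyte and fibroblast marker scores. The fifth was the ACAT1 change of AP cow I, the highest of its group at 0.38, with the others at 0.15 to 0.21.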

How the results depend on the processing

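Of 795 alternative values of the 35 member differences, 763 kept their direction and their side of the threshold, 8 passed a threshold that the main value missed (7 of them by an exact permutation p not adjusted over genes) and 24 changed sign; none lost a call, since none was made. The count of members passing for time over both diets was 0 to 1 when cows were left out in turn, with SLC16A1 passing without cow A. At an unadjusted p under 0.05 with at least 1.5-fold, BDH2 was the 1 member for LP against AP postpartum and the 1 member over both times, where its fold was just at that limit; 162 and 41 of 20011 genes met both conditions in these comparisons. The animal as a block changed no call among the 5 genes (SLC16A1 over time, limma adjusted p = 0.141 with the replicate block); it gave 381 genes for time over all genes, against 300, and 2 passing regulators against 0. Over the settings run, 0 to 6 genes of acyl-CoA supply passed for time over both diets, 0 to 3 regulators, 0 to 3 monocarboxylate carriers and 0 to 1 of the other ketone body enzymes. Over the same comparison array weights gave 654 genes, leaving out the postpartum array of cow C 546, and leaving out each cow 131 to 449. Sign changes for OXCT1 over time were -0.14 with array weights, -0.16 without cow C's postpartum array and -0.16 over the 9 cows without C. For OXCT1 in LP they were -0.16 and -0.21, and for its interaction -0.037 and -0.097, in each case with array weights first and then without the array. BDH2 over time was 0.015 over the 9 cows without C, the ACAT1 difference LP minus AP antepartum was 0.0052 after quantile normalization and the BDH1 interaction was 0.028 with array weights. Fits without cow C or its postpartum array hold fewer samples. For OXCT1 they also lack the 9.71 of that array, which set the sign of its mean change. The cause of the other sign changes was not tested. Leaving out cows in turn gave ranges that include 0 for BDH2 over time (-0.15 to 0.013) and in AP (-0.025 to 0.11), OXCT1 over time (-0.17 to 0.30) and in LP (-0.23 to 0.71), ACAT1 in LP (-0.037 to 0.19), LP minus AP antepartum for ACAT1 (-0.063 to 0.00070) and SLC16A1 (-0.044 to 0.15), and the interaction for BDH1 (-0.16 to 0.025), OXCT1 (-0.12 to 0.82) and SLC16A1 (-0.020 to 0.37). Only the groups compared could not be tried for comparisons that use all groups, where it is the main setting.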
